A study of Homo sapiens with 6 samples.

Results

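The comparison was between 2 lists of active promoters and enhancers in K562, an established human leukaemia cell line with erythroid features, mapped with a quick form of precision run-on sequencing (qPRO-seq). One list came from libraries of 1M permeabilized cells (qPRO-seq 1M) and the other from libraries of 250k cells (qPRO-seq 250k). On chromosomes 1 to 22 and X the 1M list held 38177 peaks and the 250k list 15562, together 53739 of the 78446 peaks in the 3 lists of the series. The third list came from the published PRO-seq protocol on 1M cells (PRO-seq 1M) and served only to look up peaks of the other lists. Cells of every group were untreated, and each group had 2 biological replicate libraries, separated by at least 3 passages according to the labels. The libraries of 1M cells had 11 cycles of PCR and those of 250k cells 14, so the number of cells and the number of cycles cannot be told apart.

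Each group was represented by 1 list, so the spread between replicates could not be had and the groups were not tested against each other. The lists carry no read counts, and the depth behind each is unknown. A 1M peak is called kept when a 250k peak shares at least 1 bp with it, and lost otherwise, and lost means only that no peak was listed at 250k cells. Shares are given with Wilson 95% intervals and differences of shares with Newcombe 95% intervals, which cover counting error alone and are too narrow because neighbouring peaks are not independent. The score of a peak is the authors' dREG value, without a unit, and was used to order peaks within its own list. Positions are on GRCh38, counted from 1, with genes from GENCODE release 29.

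In a run-on assay, engaged RNA polymerases extend their nascent RNA by a labelled nucleotide, so that transcription is read where it happens. Active promoters and enhancers both start transcription in opposite directions, and the dREG classifier finds them from that pattern on both strands. Promoters of most broadly expressed genes lie in CpG islands, stretches in which CpG dinucleotides are frequent, whereas many promoters of tissue-restricted genes are poor in CpG. Enhancers lie in introns or between genes, and their transcripts are usually short and unstable.

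To show the kinds of promoter behind the results, the 250 bases upstream of the RefSeq start (GRCh38.p14) are printed below for 10 genes, 5′ to 3′ on the gene's strand. The first 8 were taken by score among genes whose window a 1M peak overlapped. Capitals mark matches on either strand to the motifs searched, which were AAGATGG for the factor YY1, CCGGAA for factors of the ETS family, GCATGCG for NRF1, GGGCGG for SP and KLF factors, AGATAA for erythroid and other GATA factors, TGANTCA for AP-1, CAGCTG for the E-box and GACGTCA for the cyclic AMP response element (CRE). The box bound by NF-Y was searched as CCAAT and the TATA box as TATAAA. Neighbouring matches may overlap, as the ETS and GGGCGG matches of CHAMP1 do. CpG-rich windows had an observed over expected CpG of at least 0.6 and a GC content of at least 50% over the 250 bases before and the 50 after the start. MTFR2 (chr6:136250312-136250561, minus strand), a regulator of mitochondrial fission, and PDXK (chr21:43718879-43719128, plus strand), the kinase that makes the active form of vitamin B6, are the CpG-rich genes with the highest 1M scores that were kept.
MTFR2: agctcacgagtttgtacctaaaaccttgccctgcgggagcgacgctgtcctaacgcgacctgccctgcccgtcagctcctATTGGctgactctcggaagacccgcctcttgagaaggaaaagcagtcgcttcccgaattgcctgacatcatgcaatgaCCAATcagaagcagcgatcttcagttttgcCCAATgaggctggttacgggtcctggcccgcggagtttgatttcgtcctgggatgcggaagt
PDXK: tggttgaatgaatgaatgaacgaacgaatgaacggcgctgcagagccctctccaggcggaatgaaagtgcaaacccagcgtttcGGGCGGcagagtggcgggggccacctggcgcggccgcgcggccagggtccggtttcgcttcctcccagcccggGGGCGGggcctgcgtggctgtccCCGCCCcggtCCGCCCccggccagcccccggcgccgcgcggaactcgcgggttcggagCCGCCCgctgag

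FZD1 (chr7:91264183-91264432, plus strand), a receptor for Wnt ligands, and CHAMP1 (chr13:114314253-114314502, plus strand), a zinc-finger protein of chromosome alignment, are the CpG-rich genes with the highest scores that were lost.
FZD1: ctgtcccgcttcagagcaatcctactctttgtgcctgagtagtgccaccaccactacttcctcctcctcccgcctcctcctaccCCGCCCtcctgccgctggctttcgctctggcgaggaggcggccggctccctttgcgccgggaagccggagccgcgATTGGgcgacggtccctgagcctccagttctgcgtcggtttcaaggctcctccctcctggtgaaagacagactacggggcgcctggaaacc
CHAMP1: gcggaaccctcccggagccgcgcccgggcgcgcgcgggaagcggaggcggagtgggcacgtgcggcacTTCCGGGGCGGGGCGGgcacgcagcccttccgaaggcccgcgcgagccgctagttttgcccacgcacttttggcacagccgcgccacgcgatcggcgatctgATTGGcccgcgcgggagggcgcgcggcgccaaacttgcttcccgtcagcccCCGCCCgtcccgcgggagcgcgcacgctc

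Among CpG-poor promoters, DNAJB4 (chr1:78004689-78004938, plus strand), a cochaperone of the heat shock response, and HIST1H2AK (chr6:27838376-27838625, minus strand), a replication-dependent histone H2A gene, had the highest scores and were kept. HIST1H2AK fell into this class through its GC content of 42.7%, as its observed over expected CpG was 1.11.
DNAJB4: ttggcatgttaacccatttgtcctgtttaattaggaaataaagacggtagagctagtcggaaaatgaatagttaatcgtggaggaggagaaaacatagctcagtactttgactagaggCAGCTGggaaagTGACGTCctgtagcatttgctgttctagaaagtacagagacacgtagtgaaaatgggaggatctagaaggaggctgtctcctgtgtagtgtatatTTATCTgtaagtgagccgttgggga
HIST1H2AK: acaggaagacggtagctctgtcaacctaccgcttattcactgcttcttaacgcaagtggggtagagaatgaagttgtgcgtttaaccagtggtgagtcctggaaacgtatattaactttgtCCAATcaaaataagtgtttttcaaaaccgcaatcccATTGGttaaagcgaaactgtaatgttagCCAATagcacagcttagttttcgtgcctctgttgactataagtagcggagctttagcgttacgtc

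SUMF1 (chr3:4467270-4467519, minus strand), which activates sulfatases, and GSTM2 (chr1:109667807-109668056, plus strand), a glutathione transferase, were the CpG-poor genes with the highest scores that were lost. SUMF1 held none of the motifs searched.
SUMF1: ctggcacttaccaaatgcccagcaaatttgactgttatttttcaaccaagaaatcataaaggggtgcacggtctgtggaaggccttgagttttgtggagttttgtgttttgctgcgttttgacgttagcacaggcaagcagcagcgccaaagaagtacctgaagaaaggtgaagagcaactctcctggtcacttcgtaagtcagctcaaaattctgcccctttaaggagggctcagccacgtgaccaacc
GSTM2: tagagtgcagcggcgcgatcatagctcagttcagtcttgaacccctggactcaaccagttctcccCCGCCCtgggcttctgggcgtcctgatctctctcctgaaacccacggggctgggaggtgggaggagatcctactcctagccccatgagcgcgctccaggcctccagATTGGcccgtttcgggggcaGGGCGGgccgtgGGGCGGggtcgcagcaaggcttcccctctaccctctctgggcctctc

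The cell type markers lost at 250k cells with a window were ZFPM1 (chr16:88453030-88453279, plus strand), the cofactor of GATA1 also known as FOG1, and EBF1 (chr5:159097957-159098206, minus strand), a transcription factor of B cells. The window of EBF1 was not itself overlapped by a 1M peak, whereas those of the other 9 genes were.
ZFPM1: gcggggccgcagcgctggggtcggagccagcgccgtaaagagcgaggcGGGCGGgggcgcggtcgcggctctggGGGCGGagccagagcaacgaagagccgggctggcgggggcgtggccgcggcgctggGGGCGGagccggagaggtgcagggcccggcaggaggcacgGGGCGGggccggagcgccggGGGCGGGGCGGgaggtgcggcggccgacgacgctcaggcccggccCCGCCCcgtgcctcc
EBF1: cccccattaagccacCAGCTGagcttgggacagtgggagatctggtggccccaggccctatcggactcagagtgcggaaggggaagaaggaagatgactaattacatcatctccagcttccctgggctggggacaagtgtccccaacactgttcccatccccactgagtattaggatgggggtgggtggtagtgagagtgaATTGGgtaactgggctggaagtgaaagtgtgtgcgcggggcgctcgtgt

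The scores of these genes show that a high score at 1M cells did not guarantee a peak at 250k cells. The top start peak of MTFR2 scored 1.54, the highest value of the 1M list, and 1.01 in the 250k list. PDXK scored 1.45 and 1.27 at a start downstream of the window shown, and DNAJB4 scored 1.36 and 1.39, the highest value of the 250k list. FZD1 (1.12), CHAMP1 (1.08), SUMF1 (1.14) and GSTM2 (1.03) lay between the 93.6 and 97.9 percentiles of the 1M list and had no 250k start peak. The nearest 250k peak lay 168020 bp from the top peak of FZD1 and 32370 bp from that of CHAMP1. Each of these 4 lost genes had a start peak in the PRO-seq 1M list.

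Of the 38177 peaks at 1M cells, 16850 were overlapped by a 250k peak, a share of 44.1% (95% interval 43.6 to 44.6). In the other direction, 96.6% of the 250k peaks (15036 of 15562) were overlapped by a 1M peak. What was kept differed by position. A peak was placed at a start when an annotated transcript start lay within 500 bp. Peaks at starts of protein-coding genes were kept in 62.9% of cases (11565 of 18383), against 44.1% at starts of long noncoding RNA (lncRNA) genes alone (712 of 1615) and 45.9% at starts of other genes only (311 of 678). Away from starts, 29% of exonic peaks (457 of 1577), 26.2% of intergenic peaks (2023 of 7728) and 21.7% of intronic peaks (1782 of 8196) were kept. As a result, protein-coding starts made up 48.2% of the 1M list and 67.2% of the 250k list, while intronic peaks went from 21.5% to 11.2% and intergenic peaks from 20.2% to 12.6%.

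**Figure D1:**
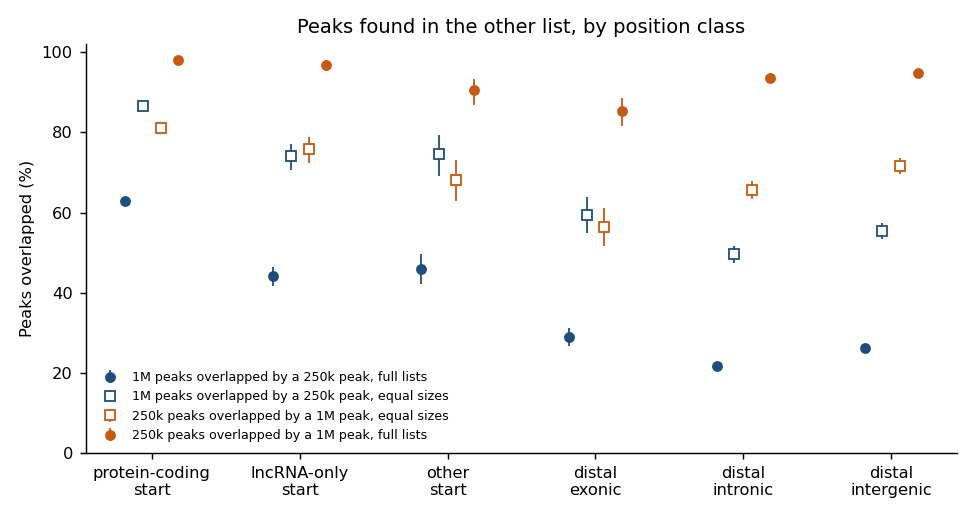
Share of peaks of each list overlapped by a peak of the other (%), by position class; circles are full lists, open squares are lists of equal size, bars are Wilson 95% intervals. The 1M peaks at protein-coding starts were kept at 62.9% with full lists and 86.5% at equal sizes, and intronic peaks at 21.7% and 49.6%.

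Peaks of the distal classes also scored lower, with a median 1M score of 0.476 against 0.624 for start-near peaks of any gene class. Within 10 groups of the 1M list of equal size, ordered by score (deciles), the kept share of distal peaks stayed below that of protein-coding starts. In the lowest decile, 19.5% of peaks at protein-coding starts (232 of 1190) were kept, against 4.77% of intronic (54 of 1132) and 5.13% of intergenic peaks (53 of 1033). For the eighth decile the shares were 83.5%, 47.8% and 48.1%, and for the highest decile 97.9%, 83.3% and 85.9%. Averaged over deciles, intronic peaks differed from protein-coding starts by -26.7 percentage points (-27.8 to -25.5), intergenic peaks by -24.5 (-25.7 to -23.4) and exonic peaks by -18.8 (-21.3 to -16.4). Peaks at lncRNA starts alone differed by -11.3 points (-13.5 to -9.29), so they stood between the protein-coding and the distal classes. Read in another way, all 1M peaks with the scores of the intronic class were kept at 35.0%, and intronic peaks themselves at 21.7%. Such a share, the kept share of all peaks spread over the deciles as the class is, is called the share at like score below.

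**Figure D2:**
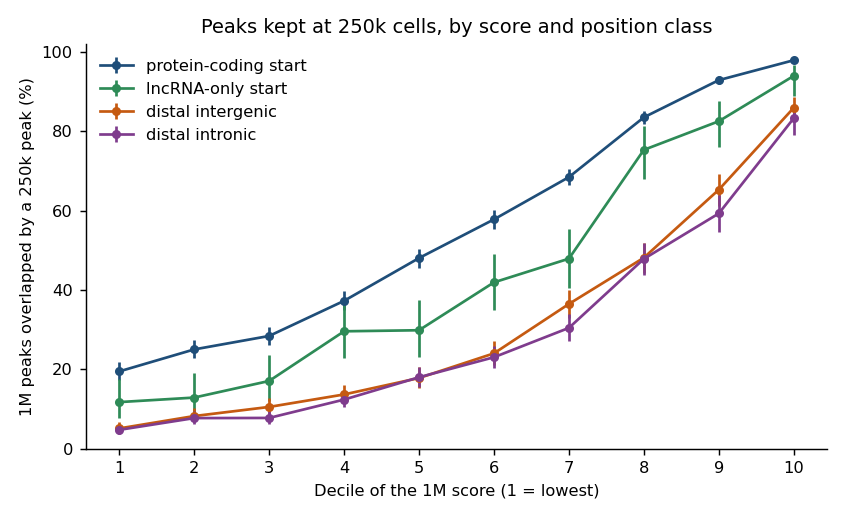
Share of 1M peaks kept at 250k cells (%), by decile of the 1M score (1 is the lowest), for 4 position classes, with Wilson 95% intervals. The shares rose with the score in each class shown, from 19.5% to 97.9% at protein-coding starts and from 4.77% to 83.3% in introns.

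The difference between classes remained at equal list sizes, with the 15562 highest-scored 1M peaks set against the whole 250k list. Of the top-scored 1M peaks, 74.9% were then overlapped by a 250k peak, with 86.5% at protein-coding starts, 74.0% at lncRNA starts alone, 59.5% in exons, 55.5% between genes and 49.6% in introns. Of the 250k peaks, 77% were overlapped by a top-scored 1M peak. At equal size the 1M list held 9540 peaks at protein-coding starts and the 250k list 10453, whereas distal intronic peaks numbered 2180 and 1747 and distal intergenic peaks 2458 and 1961. Thus 5082 of the top-scored 1M peaks were distal, against 4125 in the 250k list.

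The PRO-seq 1M list held counterparts of many lost peaks. Of the lost start-near peaks, 58.8% had a counterpart there, and of the lost distal peaks 29.2%. Kept peaks had one in 95.3% of cases near starts and in 83.3% of cases away from them.

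The top-scored peaks without a 250k counterpart were named for each class. At protein-coding starts these were peaks of VPS13D, a lipid transfer protein (chr1:12496401-12496890, score 1.31), GATAD2A, a subunit of the NuRD complex (chr19:19404901-19405860, score 1.31), and PINX1, an inhibitor of telomerase (chr8:10838681-10839400, score 1.20). The PINX1 peak lay 340 bp from a 250k peak, and those of VPS13D and GATAD2A 17820 and 18950 bp from the nearest. In introns the leading lost peaks lay in PACS1 (chr11:66183281-66184050, score 1.29), in the lincRNA gene AC129926.2 (chr17:27106371-27107110, score 1.25) and in CSNK1G1 (chr15:64246671-64247170, score 1.22). They were between 16826 and 41746 bp from an annotated start. Between genes they lay on chromosome 17 near RN7SL507P (chr17:44288281-44288950, score 1.25), on chromosome 1 near F11R (chr1:160989791-160990330, score 1.22) and on chromosome 17 near KSR1 (chr17:27446581-27447440, score 1.19). All 9 of these peaks had a counterpart in the PRO-seq 1M list.

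In exons away from starts, the leading lost peaks were in RIMBP3B (score 1.07), the lincRNA gene AC003043.2 (score 1.07) and PDLIM3 (score 1.05), the last without a PRO-seq counterpart. RIMBP3B has close copies on chromosome 22, and how reads were placed between copies is not given in the sources used here. At lncRNA starts, the leading lost peaks belonged to AC132938.5 (score 1.12), SAMSN1-AS1 (score 1.10) and AF241728.1 (score 1.01). At the other end, peaks with some of the lowest 1M scores were kept. The lowest at protein-coding starts were those of ITPR3, a calcium channel of the endoplasmic reticulum (score 0.251), C9orf3 (score 0.261) and NOL7 (score 0.263). The lowest intergenic ones were on chromosome 4, 70999 bp from the nearest annotated start (score 0.252), and on chromosome 6, 16221 bp (score 0.260) and 288845 bp (score 0.267) from one.

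Distal peaks were kept less often the farther they lay from a start, by amounts that were small beside the difference between distal and start peaks. In introns, 23% were kept up to 10 kb from a start (1292 of 5616), 19.4% from 10 to 50 kb and 16.7% beyond 50 kb (63 of 378), with 34.6%, 36.2% and 34.8% at like score. The intronic interval from 10 to 50 kb (17.8 to 21.1) overlapped that beyond 50 kb (13.2 to 20.8). Between genes the kept shares were 27.5%, 25.1% and 24.2%, with 36.7%, 39.6% and 38.4% at like score. The intervals of these kept shares overlapped between neighbouring ranges. Intronic peaks in genes whose own start peak was kept were kept in 22.5% of cases (968 of 4311), and those in genes whose start peak was lost in 20.7% (173 of 835, 18.1 to 23.6), so the intervals overlapped. Clustered and isolated peaks differed more, without adjustment for score. Distal peaks with another distal 1M peak within 10 kb were kept at 31.3% (2838 of 9062) and isolated ones at 16.9% (1424 of 8439). Their median score percentiles were 41.9 and 36.8, and their shares at like score were not computed.

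Joining 1M peaks closer than 500 bp gave regions of 1 to 9 peaks. Regions of 1 peak were overlapped at 250k cells in 28.3% of cases (4649 of 16422), regions of 2 peaks in 72.0%, of 3 in 89.8% and of 4 or more in 98.2% (1067 of 1087). Away from starts, the shares were 17.6%, 47.9%, 70.0% and 92.1%, and near starts 98.6% of regions of 4 or more peaks were kept (97.7 to 99.2). The distal regions of this size numbered 76, and their interval, 83.8 to 96.3, lay below that of the start-near ones. All regions with a highest score in the same deciles as these distal regions were kept at 28.9%, 50.1%, 59.6% and 70.9%. A region counted as kept when a 250k peak overlapped any part of it, so regions of more peaks had more places to be overlapped. The share at like score matched only the highest score, not the length or the number of peaks. The rise with the number of peaks is therefore partly built into the rule. Kept regions of 4 or more peaks near starts held a mean of 2.12 peaks at 250k cells.

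**Figure D3:**
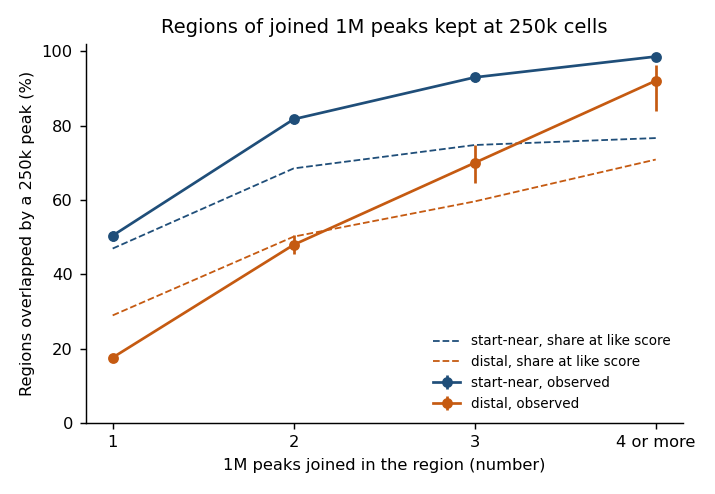
Share of regions of joined 1M peaks overlapped by a 250k peak (%), by the number of 1M peaks in the region; solid lines are observed shares with Wilson 95% intervals and dashed lines the shares at like score. Distal regions rose from 17.6% with 1 peak to 92.1% with 4 or more, and start-near regions from 50.4% to 98.6%.

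Many of the lost peaks near starts lay beside a peak that was listed at 250k cells. Of the lost start-near peaks, 43.5% (3519 of 8088) lay within 500 bp of a 250k peak, against 11.7% of the lost distal peaks (1548 of 13239). The median distance from a lost peak to the nearest 250k peak was 980 bp near starts and 19820 bp away from them. Among 10305 pairs of peaks that overlapped only each other, the 1M peak had a median width of 560 bp and the 250k peak of 420 bp, and the 1M peak was the wider in 84.7%. Their centres differed by a median of 30 bp. Overlap with 2 or more peaks of the other list was found for 3102 of the 250k peaks and 1477 of the 1M peaks.

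Counted by gene, 10821 protein-coding genes had a 1M start peak and 8670 of them, 80.1% (79.4 to 80.9), also had a 250k start peak. The loss by gene was therefore smaller than the loss by peak. Of 6668 protein-coding genes with 2 or more 1M start peaks, 2367 had all of them overlapped at 250k cells, 3646 some and 655 none. Of the 2151 lost protein-coding genes, 1561 (72.6%) had a start peak in the PRO-seq 1M list. In 39 of the lost genes a 250k peak overlapped a 1M start peak but lay over 500 bp from the start, among them EGR1 and SLC10A7.

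Of the lncRNA genes with a 1M start peak, 66.7% were kept (1832 of 2745, 65.0 to 68.5), with 73.4% of protein-coding genes at like score. Those annotated at bidirectional promoters were kept at 85.5% (47 of 55; 84.9% at like score), antisense genes at 71.4% (917 of 1284; 75.5%) and lincRNA genes at 58.9% (621 of 1055; 69.9%). Peaks carry no strand, so an lncRNA gene that starts beside a protein-coding gene takes part in the same peak. Of the lncRNA genes whose top 1M peak lay within 500 bp of a protein-coding start, 79.1% were kept (1317 of 1665), and of those with a peak of their own 47.7% (515 of 1080). Within score deciles, the first group differed from protein-coding genes by -0.07 percentage points (-1.95 to 1.51) and the second by -14.5 (-17.4 to -12.3). Processed pseudogenes, copies made by reverse transcription, were kept at 34.1% (57 of 167, 27.4 to 41.6; 54.6% at like score).

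The following lists of the basal cell machinery had kept shares above the 80.1% of all protein-coding genes. The share of all protein-coding genes at like score is given beside each. All 22 nuclear pore genes, all 21 genes of cholesterol synthesis and all 11 genes of heme synthesis with a 1M start peak also had a 250k start peak, with 96.6%, 89.0% and 83.4% at like score. Cytosolic ribosomal protein genes were kept at 96.1% (74 of 77, 89.2 to 98.7; 87.3% at like score) and mitochondrial ones at 93.0% (66 of 71, 84.6 to 97.0; 83.1%). Translation initiation factors were kept at 95.8% (46 of 48; 90.2% at like score), aminoacyl-tRNA synthetases at 94.1% (32 of 34; 93.1%) and complex I of the respiratory chain at 90.7% (39 of 43; 88.6%). Ubiquitin-conjugating enzymes were kept at 93.5% (29 of 31; 81.3% at like score), replication genes at 92.3% (36 of 39; 85.7%), spliceosome genes at 91.9% (34 of 37; 84.8%) and the proteasome at 89.7% (35 of 39; 85.0%). Of all the lists in this paragraph, only the 2 of ribosomal proteins had an interval that excluded the share at like score. The intervals of heme synthesis, complex I, ubiquitin-conjugating enzymes, replication, spliceosome and proteasome genes also included the 80.1% of all protein-coding genes.

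Single genes of these lists show both outcomes. Where 2 scores are given for a gene, they are of its top start peak in the 1M and in the 250k list. RPL27A, of the large ribosomal subunit, scored 1.38 in the 1M list and 1.01 in the 250k list. RPS26, of the small subunit, scored 0.909 at chr12:56041711-56042200 in the 1M list, above 85.7% of it, and had no 250k start peak. RPL26L1 (0.620) and RPS25 (0.507) were the other lost members. In the proteasome, PSMD14, a deubiquitinase of the lid, scored 1.39 and 1.12, and PSMB7, a catalytic subunit, scored 0.741 and was lost. Among complex I genes, NDUFB6 scored 1.36 and 0.917, and NDUFA9 (0.932) and NDUFB8 (0.841) were lost. Of the heme pathway, CPOX, which acts late in it, scored 1.13 and 1.06.

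Genes of RNA polymerase II, its general factors and the mediator were kept at 85.5% (59 of 69), close to the 85.3% at like score. MED6, a subunit of the mediator head, had the highest score among their lost members, 1.16 at chr14:70600261-70601120, and the nearest 250k peak lay 208580 bp away. DNA repair genes were kept at 82.7% (43 of 52, 70.3 to 90.6; 87.6% at like score), with OGG1, which removes oxidized guanine (0.864), and FANCE of the Fanconi pathway (0.764) among the lost. The FANCE peak lay 470 bp from a 250k peak. RAD51C (1.25 and 1.04) and PALB2 (1.23 and 1.02), both of homologous recombination, were kept. Replication-dependent histone genes were kept at 86.0% (43 of 50, 73.8 to 93.0; 82.6% at like score). Their median score percentile was 97.0, and HIST1H4C scored 1.30 in the 1M list and 1.33 in the 250k list. The lost histone genes included HIST2H3A, HIST2H3C and HIST2H2AA4, which have identical or near-identical copies, so these losses are uncertain.

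Several lists of signalling, matrix and adhesion genes had kept shares below 80.1%. Genes of interleukins, chemokines, interferons and their receptors were kept at 50.9% (27 of 53, 37.9 to 63.9; 63.3% at like score). CXCL8, a chemokine for neutrophils, scored 0.876 at chr4:73740231-73740960 and was lost, as was IL18 (0.714), whereas the chemokine gene CXCL2 scored 1.09 in the 1M list and 0.879 in the 250k list. Collagens, laminins and integrins were kept at 56.0% (14 of 25; 61.9% at like score), cadherins and protocadherins at 50.0% (4 of 8; 68.3%) and HOX genes at 55.6% (5 of 9; 47.5%). COL18A1 (0.633), LAMA4 (0.557), HOXA3 (0.553) and CDH24 (0.609) were lost, while the HOX gene HOXB9 (0.765 and 0.728) and CDH9 (1.14 and 0.812) were kept. The intervals of these 3 lists and of the cytokine list included the share at like score, and that of the HOX genes also the 80.1% of all protein-coding genes. All 4 keratin genes with a 1M start peak were kept (98.3% at like score).

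Zinc-finger genes named ZNF, a family that includes repressors of transposable elements, were kept at 75.4% (282 of 374, 70.8 to 79.5), with 78.3% at like score. Solute carriers, which move metabolites and ions across membranes, were kept at 73.6% (120 of 163, 66.4 to 79.8; 78.7% at like score) and ion channels at 70.6% (24 of 34; 77.2%). The intervals of these 3 families too included the share at like score. That of the ion channels (53.8 to 83.2) also included the 80.1% of all protein-coding genes. ZNF182 and ZNF226, both at 1.05 in the 1M list, and SLC25A15, the mitochondrial ornithine carrier (1.03), were among the lost. ZNF460 scored 1.26 and 1.04 and SLC7A11, the cystine transporter, 1.22 and 1.08.

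**Figure D4:**
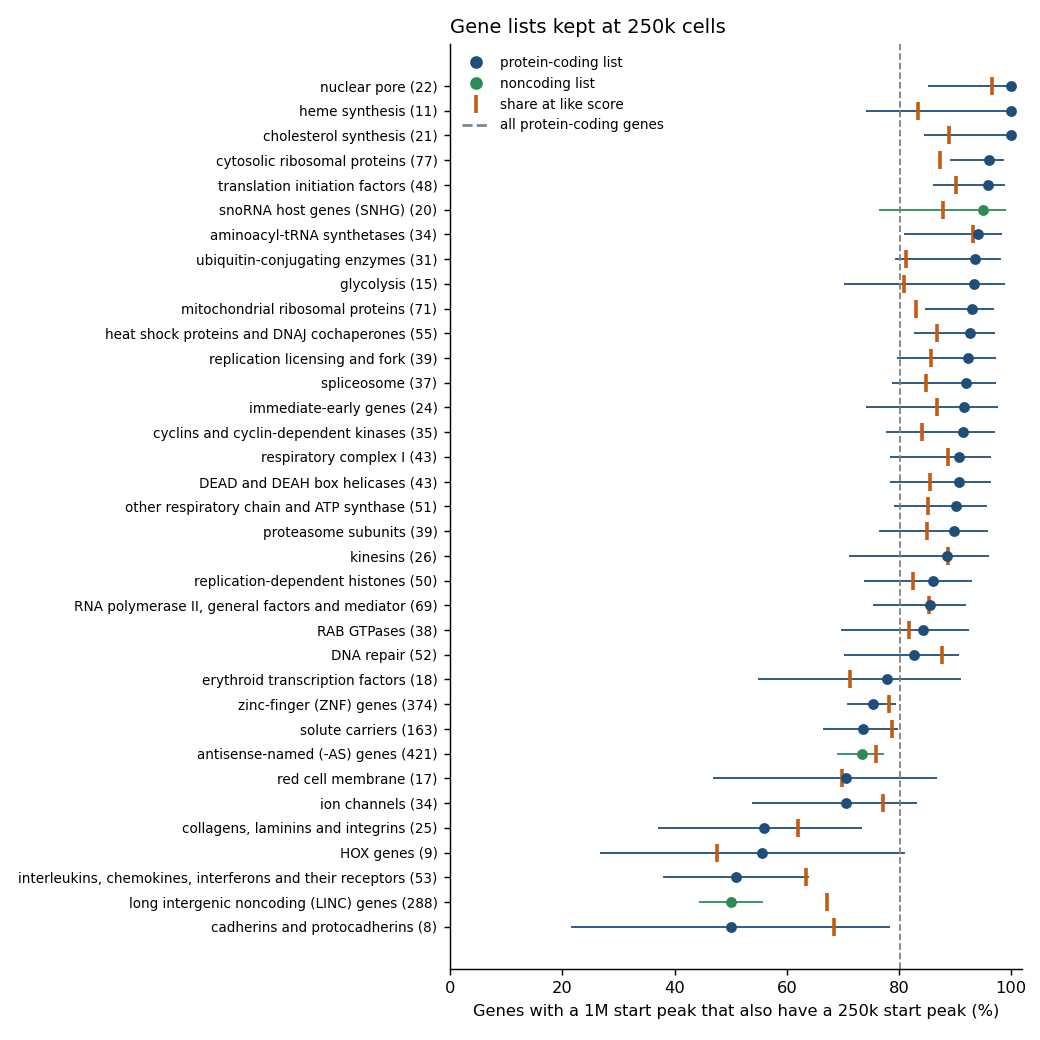
Share of genes with a 1M start peak that also had a 250k start peak (%), for the lists with at least 8 such genes (number in brackets), with Wilson 95% intervals; orange ticks are the shares of protein-coding genes at like score and the dashed line is the 80.1% of all protein-coding genes. Lists of basal machinery lie above the line, and cytokine, matrix and LINC genes below it.

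The erythroid identity of K562 was visible in both lists. All 14 erythroid markers had a 1M start peak and 12 had a 250k start peak, while 1 of 6 megakaryocytic markers (ITGA2B), 1 of 6 T-lymphoid markers (TCF7) and none of 4 monocytic markers had a start peak in either list. Of 8 B-lymphoid markers, 2 had a start peak at 1M cells and 1 at 250k cells, although the labels call the line lymphoblastoid, and EBF1 was the marker lost. GATA1, the master regulator of red cells, scored 0.523 and 0.494, TAL1 scored 0.767 and 0.504, and KLF1 scored 0.653 and 0.451. HBG1, a gamma-globin gene, scored 0.691 and 0.399. HBG2 and HBE1 shared a top peak at chr11:5505331-5506010 (1.09 and 0.903), which belongs to distant annotated starts and not to their coding exons. HBG2 had no other 250k start peak, so it counts among the 12 markers only through this distant start. HBG1 and HBG2 are near-identical copies.

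ZFPM1 had a middling score among 1M peaks and was lost. It scored 0.610 at chr16:88452551-88452990, with the nearest 250k peak 44790 bp away. Erythroid transcription factors were kept at 77.8% (14 of 18, 54.8 to 91.0; 71.2% at like score), and CBFA2T3 (0.436), MAFK (0.416) and LMO2 (0.295) were the other lost members. Red cell membrane genes were kept at 70.6% (12 of 17, 46.9 to 86.7; 69.9% at like score). GYPC (0.617) was lost and TFRC, the transferrin receptor, was kept (1.00 and 0.897).

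Immediate-early genes, which respond within minutes to stimuli, were kept at 91.7% (22 of 24, 74.2 to 97.7), with 86.7% at like score inside the interval. JUN scored 1.11 and 0.942 and IER5 scored 1.16 and 1.06. EGR1 (0.705) and EGR2 (0.387) were counted as lost, EGR1 although a 250k peak overlapped its 1M start peak. Heat shock proteins and DNAJ cochaperones were kept at 92.7% (51 of 55, 82.7 to 97.1), with 86.7% at like score inside the interval. HSPD1, the mitochondrial chaperonin, was kept. A 250k peak lay at its top 1M peak (1.33, chr2:197515331-197516280), with a gap of 0 bp. Its top-scored 250k start peak (0.679, chr2:197499661-197500130) lay at a different start. DNAJC12 (0.752) was lost.

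The noncoding lists differed widely. Of the noncoding genes with a 1M start peak, 64.9% had a 250k start peak. Hosts of small nucleolar RNAs (SNHG genes), many of them broadly transcribed, were kept at 95% (19 of 20, 76.4 to 99.1; 87.8% at like score). SNHG3 scored 1.28 and 1.23, and SNHG20, scored 1.03 at chr17:77088231-77088890, was the lost member. Long intergenic noncoding genes (LINC names) were kept at 50.0% (144 of 288, 44.3 to 55.7) with 67.1% of protein-coding genes at like score. LINC02281 (0.992) was lost and LINC01719 (1.28 and 0.977) was kept. LINC01135 was counted as lost although its top peak, which is the JUN promoter peak, was overlapped at 250k cells. Genes named as antisense were kept at 73.4% (309 of 421, 69.0 to 77.4; 75.9% at like score), with TBC1D8-AS1 (0.989) lost and HEXA-AS1 (1.30 and 1.14) kept. The intervals of the SNHG and antisense lists included the share at like score, and that of the LINC genes did not.

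At equal list size the lists held partly different genes. Of 8427 protein-coding genes with a start peak among the 15562 top-scored 1M peaks, 7725 (91.7%) had a 250k start peak and 702 did not, while 1010 genes had a 250k start peak only. Like all protein-coding genes together, several lists of basal machinery had more genes in the 250k list. Of the cytosolic ribosomal protein genes, 8 were there only and 2 in the top-scored 1M list only. For mitochondrial ribosomal proteins the numbers were 13 and 3, and for ubiquitin-conjugating enzymes 6 and 0. The pattern was not particular to these lists. It was also seen for cyclins and cyclin-dependent kinases (6 and 1), heat shock proteins and DNAJ cochaperones (5 and 2) and replication-dependent histones (4 and 0). Complex I (2 and 2), translation initiation factors (1 and 1) and aminoacyl-tRNA synthetases (0 and 1) did not share this pattern. The numbers were 45 and 36 for ZNF genes, 16 and 15 for solute carriers and 5 and 5 for cytokines and their receptors. For all protein-coding genes they were 1010 and 702, so the ZNF split was not far from that background. LINC genes were in the 250k list only in 23 cases and in the top-scored 1M list only in 38. For all lncRNA genes these numbers were 285 and 264, and for lincRNA genes 97 and 120. DNA repair genes were there in 0 and 3 cases.

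CpG-rich and bidirectional promoters were kept more often than others. A RefSeq window was matched for 8724 of the 10821 protein-coding genes (80.6%), with no windows for chromosome 8 in the table used. 1M peaks overlapped 8035 windows, so some genes, such as EBF1, were classed by a window without a 1M peak. Genes with CpG-rich windows were kept at 84.0% (6307 of 7505) and those with CpG-poor windows at 65.0% (792 of 1219). At like score a smaller difference remained, 8.94 percentage points averaged over deciles (7.06 to 11.3). GC content alone had no single direction. From the lowest to the highest of 5 groups by GC content, 75.9%, 84.8%, 84.8%, 82.1% and 79.0% of genes were kept, with 80.1%, 84.3%, 83.0%, 81.4% and 76.4% at like score. Only the group of lowest GC content was thus below its share at like score. Genes with another protein-coding start on the opposite strand within 1000 bp upstream were kept at 89.6% (1872 of 2090) and other genes at 77.9%, a difference of 7.0 points within deciles (5.39 to 8.47). A peak between divergent genes serves both, so these genes are not independent. With 1 start peak at 1M cells, 64.4% of genes were kept, and with 4 or more 97.3%. A gene counted as kept through any of its starts, so this rise is partly built into the rule.

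Motifs in the promoter window went with smaller differences. All 15237 windows gave the background shares, which were 23.5% for CCGGAA, 4.72% for GACGTCA, 60.7% for GGGCGG, 36.8% for CCAAT, 7.24% for AGATAA, 5.60% for TGANTCA, 9.42% for TATAAA, 6.48% for AAGATGG, 5.24% for GCATGCG and 17.7% for CAGCTG. Genes with the ETS motif were kept more often, 87.2% against 78.5%, by 4.07 percentage points within deciles (2.57 to 5.49), and so were genes with the CRE, 89.7% against 80.8%, by 4.60 points (1.29 to 7.23). GGGCGG differed by 2.81 points (1.30 to 4.46) and CCAAT by 1.69 (0.287 to 3.02). The GATA motif went the other way, 73.8% against 81.7%, by -5.73 points (-10.1 to -2.80), as did AP-1, by -4.84 (-9.32 to -1.64). For the TATA box, YY1, NRF1 and the E-box the interval included 0. Within CpG class as well as decile, ETS (2.99), CRE (5.08), CCAAT (1.95) and GATA (-3.32) kept intervals without 0, and GGGCGG (-0.32) and AP-1 (-2.27) did not. The GATA interval (-8.12 to -0.148) came close to 0, as did that of CCAAT (0.556 to 3.27). No interval was widened for the search of 10 motifs. In the windows printed above, the GATA motif occurs in DNAJB4, which was kept, and the ETS motif in CHAMP1, which was lost, so single genes need not follow these averages.

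**Figure D5:**
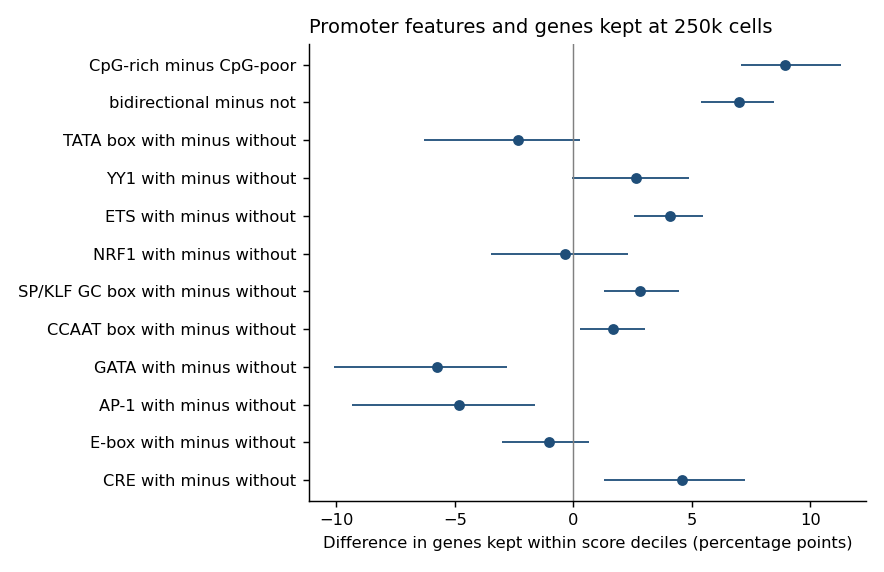
Difference in the share of protein-coding genes kept at 250k cells (percentage points, averaged within deciles of the 1M score) between genes with and without each promoter feature; bars are 95% intervals for counting error. CpG-rich windows lie at 8.94 and windows with the GATA motif at -5.73.

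Few peaks were listed at 250k cells alone. Of these 526 peaks, 197 lay within 500 bp of a 1M peak. Exonic 250k peaks were overlapped by a 1M peak least often of the 6 classes, at 85.4% (356 of 417), against 98.1% at protein-coding starts. The top-scored ones without a counterpart were at the start of the lincRNA gene AC140725.1 (chr15:101961451-101961900, score 0.644), at a start of BAIAP2, an organizer of actin at the membrane (chr17:81056831-81057170, score 0.630), and on chromosome 13 near AL136961.1 (chr13:99434341-99434740, score 0.625). Of 65 protein-coding genes with a start peak at 250k cells and none at 1M cells, 42 had one in the PRO-seq 1M list. Those on the gene lists were RPL41, MRPL38, NDUFAF3, CDK4, CDK20, LSS, DNAJC4, the zinc-finger genes ZNF404, ZNF485, ZNF582 and ZNF880, and the solute carriers SLC12A9, SLC45A3 and SLC4A8.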

How the data were processed

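Nascent transcription was measured in K562 cells in 6 libraries, of 3 groups with 2 replicates each. Reads were 37 nt long with molecular identifiers of 6 nt, per the labels' protocols. The submitters' processing notes name fastp 0.20.0, UMI-tools, Bowtie2 2.3.5.1, deepTools 3.1.3 and the builds hg38 and GRCh38. The dREG version and thresholds, and how replicates were combined, are not given in the sources used here. The authors deposited 1 list per group with, for each peak, a score, a p-value and the start, end and centre. Whether the p-values were adjusted is not stated, and all were under 0.05.

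From these, overlaps, Wilson and Newcombe intervals and differences within 10 score deciles (weighted by decile size) were computed with Python 3.11.15, numpy 2.4.6, pandas 2.3.3 and statsmodels 0.14.6, tested on simulated data. No p-value was computed, since each group had 1 list, and depth per sample is unknown. Groups came from the sample titles. Peaks up to 500 bp from a GENCODE 29 transcript start of a gene were its start peaks. Promoter windows came from RefSeq (GRCh38.p14), and the window nearest the gene's top 1M peak was used.

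The comparison, the 37 gene lists and the markers were chosen with earlier results of these data known. In each list up to 2 lost and 2 kept genes with the highest 1M score were named, and for peaks the 3 highest or lowest in each class. Some marker and list genes are counted in their lists but are not reported here by name. Members of small lists and markers named beyond this rule were chosen after their values were seen. Names of 3 lists were narrowed after counts were seen (from 23 to 22 nuclear pore, 58 to 55 heat shock and 27 to 25 matrix and integrin genes), as was the choice of window, which at first used only genes with 1 window. Alternatives covered overlap rules, p limits, equal sizes, merging, start windows, score adjustment and the CpG limit.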

Additional observations from a re-analysis of the deposited data

Results flagged for a closer look

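Peaks outside chromosomes 1 to 22 and X entered no comparison and were counted apart. The qPRO-seq 1M list held 220 of them, 145 on alternate sequences and 1 on the mitochondrial genome, and 34 (15.5%, 11.3 to 20.8) were overlapped at 250k cells. In the qPRO-seq 250k list there were 44, 28 on alternate sequences and 5 on the mitochondrial genome, and 34 (77.3%, 63.0 to 87.2) were overlapped at 1M cells.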

How the results depend on the processing

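No paired analysis was possible because each group had 1 list, so neither a replicate block nor the omission of a replicate could be fitted. Of 43 alternatives, 10 lay inside the interval of the main value and 33 outside it. Most of them were for shares, which have no direction to turn. No alternative for the difference of distal from start-near peaks or for the CpG difference turned its direction. The share of 1M peaks overlapped at 250k cells (44.1%) became 34.9% with at least 50% of both peaks shared, 33.2% with centres within 100 bp, 42.9% at a deposited p of 0.01 or less, 74.9% at equal list sizes and 45.9% with peaks within 500 bp merged. For 250k peaks overlapped at 1M cells (96.6%), the first 4 of these gave 85.5%, 81.5%, 96.3% and 77.0%. In the same order, start-near 1M peaks (60.9%) were kept at 48.5%, 46.0%, 58.4%, 85.4% and, merged, 70.8%, and at 56.9% with a start window of 1000 bp. Distal peaks (24.4%) were kept at 18.8%, 18.1%, 22.5%, 53.3%, 22.8% and 23.5%. The difference of distal from start-near peaks within score deciles (-23.4 percentage points) was -16.5 with at least 50% shared, -14.8 by centres, -26.6 at equal sizes, -36.5 without adjustment for score and -31.8 within deciles of peak width. Protein-coding genes were kept at 75.6% with the p limit and 91.7% at equal sizes, and lncRNA genes at 64.5% and 85.7%. The CpG difference (8.94 points) was 6.81 at equal sizes, 19.1 without adjustment for score and 6.98 with an observed over expected CpG of at least 0.75. Chosen after seeing the data, the alternative with only the 6187 genes of 1 promoter window gave 7.56 (5.35 to 10.5), and counting a gene as kept when a 1M start peak was overlapped gave 80.2% of protein-coding genes. Depth was not given, so its part in the peaks missing at 250k cells was not tested.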

Other observations

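By chromosome, the share of 1M peaks kept ran from 37.3% on chromosome 21 (187 of 502) to 49.7% on chromosome 19 (1124 of 2261). Chromosome 19 also had the largest share of start-near peaks, 64.7%, and chromosome 6 the highest kept share of start-near peaks, 67.0%. From class and score alone, the kept shares would have been 39.6% for chromosome 21 and 45.9% for chromosome 19. For chromosome 6 this value was 43.5%, and 45.8% of its peaks were kept.

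Of genes of any biotype with a 1M start peak, 76.2% had a 250k start peak. Small RNA genes were kept at 66.2% (263 of 397, 61.5 to 70.7), with 71.9% of protein-coding genes at like score. Small nuclear RNA genes (59 of 77, 76.6%; 75.2% at like score), microRNA genes (111 of 162, 68.5%; 72.4%) and small nucleolar RNA genes (40 of 68, 58.8%; 66.1%) had intervals that included the share at like score. When the small RNA's top peak was shared with a protein-coding start, 74.3% were kept (142 of 191; 77.8% at like score), and otherwise 58.7% (121 of 206; 66.4%). Unprocessed pseudogenes without annotated transcripts were kept at 50.0% (29 of 58; 69.1% at like score) and transcribed ones at 67.2% (121 of 180; 75.5%). Many small RNA genes and pseudogenes have copies elsewhere in the genome, so the gene that a peak belongs to is uncertain.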
